A study of Mus musculus with 17 samples.

Results

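Gata1, Gata2, Klf1, Nfe2 and Zfpm1 encode the transcription factors that direct blood progenitors to red cells and platelets, and their messages were followed through 17 libraries of sorted mouse common myeloid progenitors (CMPs). The 5 genes were chosen by name and role, not by a threshold on measured values and with earlier results of these data known, from 24416 genes in the count files. All 5 passed the filter on low counts that left 13558 genes for testing. CMPs are the bone marrow and fetal liver cells that give rise to granulocytes, monocytes, red cells and platelets. The series asked how Lin28b and let-7 regulate myeloid development. LIN28B is an RNA-binding protein that blocks maturation of let-7 microRNAs.

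The labels gave 7 groups of mice on the C57BL/6J strain, except that the let-7b/c knockout is listed as albino black 6. From fetal liver came 3 libraries labelled Lin28b knockout (replicates 3, 6 and 8), 1 inducible let-7 library, and 3 wild-type libraries (replicates 1, 4 and 5). From adult bone marrow came 2 libraries of inducible LIN28B under vavcre (replicates 4 and 6), 2 of inducible LIN28B without vavcre (1 and 5), 3 of let-7b/c knockout (1, 2 and 3), and 3 of wild type (2, 5 and 6). The design text describes the vavcre libraries as induced in blood-forming cells specifically. All 17 labels, wild type and knockouts included, carry the same treatment note, doxycycline exposure to induce Lin28b. No label gives an age, a number of animals per library, or separate animals for replicates. The p-values therefore weigh differences against a library-to-library spread that may be technical.

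Library totals on transcripts ranged from 14957111 to 28165554 counts. Lin28b averaged 104 ± 12.9 CPM in the labelled Lin28b knockout fetal livers and 104 ± 17.6 CPM in wild-type fetal livers (SD, n = 3 each), a log2 difference of -0.00 with an adjusted p of 1, so the files show no loss of Lin28b message in the libraries labelled Lin28b knockout. CPM are counts scaled to a TMM-adjusted library size of 1000000. In bone marrow, Lin28b averaged 2.83 CPM with inducible LIN28B under vavcre, 2.67 CPM without vavcre and 0.359 CPM in wild type. In the edgeR fit, both LIN28B lines were higher than wild type (adjusted p = 0.000621 with vavcre and 0.0177 without). Between the lines, Lin28b did not pass (log2 0.07, adjusted p = 0.956). Of the genes that define CMPs, Kit and Ly6a had 0 counts in all 7 groups, while Mpo, Flt3, Cd34 and the other listed markers were counted in each group. Reads that aligned to several places were 25.6% to 28.9% of aligned reads in the labelled knockout libraries, against 10.3% to 14.1% in the other 14 libraries. In bulk samples like these, fewer cells of a type and less RNA per cell cannot be told apart.

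GATA2 acts in stem and early progenitor cells, and as red cells mature GATA1 takes over its binding sites and shuts down the Gata2 gene, an exchange known as the GATA switch. FOG1, the product of Zfpm1, binds the N-terminal zinc finger of GATA1 and is needed for red cells and megakaryocytes. KLF1 binds CACCC boxes in globin and other red cell genes, and NF-E2 p45, the product of Nfe2, pairs with a small MAF protein and is needed for platelet release.

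The promoters are shown because each of these factors reads a short DNA word, and some of the factors regulate each other's genes. The windows are the 250 bases before and 50 bases after a listed start site in RefSeq on GRCm38.p6, 5′ to 3′ on the gene's strand. Capitals mark matches on either strand to a GATA word (AGATAA and likewise AGATAG, together with TGATAA as well as TGATAG) or to a CACCC-type word (CCNCNCCC). RefSeq gave windows for Gata1, Gata2 (start sites of a distal and a proximal window), Zfpm1 and Klf1. Gata1 lies at chrX:7959260-7978071 on the minus strand, Gata2 at chr6:88193891-88207032 on the plus strand, Zfpm1 at chr8:122282141-122337251 on the plus strand and Klf1 at chr8:84901928-84905291 on the plus strand. Nfe2 lies at chr15:103248212-103258403 on the minus strand.
Gata1 promoter, chrX:7967861-7968160, minus strand: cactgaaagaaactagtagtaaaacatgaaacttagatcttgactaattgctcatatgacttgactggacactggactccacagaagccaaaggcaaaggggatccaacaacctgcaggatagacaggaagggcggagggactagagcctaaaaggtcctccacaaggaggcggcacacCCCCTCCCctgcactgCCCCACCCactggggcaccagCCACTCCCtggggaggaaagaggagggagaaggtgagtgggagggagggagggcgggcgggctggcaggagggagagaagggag
Gata2 distal promoter, chr6:88193641-88193940, plus strand: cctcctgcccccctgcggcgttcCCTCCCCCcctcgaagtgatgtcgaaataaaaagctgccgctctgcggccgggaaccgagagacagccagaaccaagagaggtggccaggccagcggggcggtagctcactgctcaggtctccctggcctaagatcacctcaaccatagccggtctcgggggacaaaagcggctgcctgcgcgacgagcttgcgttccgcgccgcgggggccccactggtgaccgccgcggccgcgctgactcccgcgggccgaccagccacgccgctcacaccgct
Gata2 proximal promoter, chr6:88198414-88198713, plus strand: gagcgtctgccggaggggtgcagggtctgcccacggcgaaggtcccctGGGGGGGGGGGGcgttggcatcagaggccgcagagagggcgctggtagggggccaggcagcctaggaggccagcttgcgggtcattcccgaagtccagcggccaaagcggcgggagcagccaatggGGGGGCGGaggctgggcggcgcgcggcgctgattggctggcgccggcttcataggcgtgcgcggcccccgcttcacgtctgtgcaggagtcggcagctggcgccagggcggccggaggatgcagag
Zfpm1 promoter, chr8:122281891-122282190, plus strand: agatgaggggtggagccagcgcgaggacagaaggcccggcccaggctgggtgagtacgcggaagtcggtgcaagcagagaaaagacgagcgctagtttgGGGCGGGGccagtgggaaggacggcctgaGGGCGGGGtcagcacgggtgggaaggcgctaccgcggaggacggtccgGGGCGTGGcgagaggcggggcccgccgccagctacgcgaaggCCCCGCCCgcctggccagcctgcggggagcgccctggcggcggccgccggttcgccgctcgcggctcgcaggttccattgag
Klf1 promoter, chr8:84901732-84902031, plus strand: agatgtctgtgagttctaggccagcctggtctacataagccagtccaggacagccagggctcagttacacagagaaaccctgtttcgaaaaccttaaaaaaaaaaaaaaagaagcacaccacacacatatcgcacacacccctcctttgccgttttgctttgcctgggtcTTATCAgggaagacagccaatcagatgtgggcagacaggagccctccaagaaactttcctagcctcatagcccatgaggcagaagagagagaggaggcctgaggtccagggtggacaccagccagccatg

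The Klf1 window held 1 GATA word, 80 bases before the start, where the capitals read TTATCA, the reverse complement of TGATAA. The windows of Gata1, Gata2 and Zfpm1 held no GATA word. CACCC-type words numbered 3 in the Gata1 window, 4 in the Zfpm1 window, 1 in the distal Gata2 window and 6 in the proximal Gata2 window, of which 5 overlap in a single run of G. Among 32851 RefSeq windows of this length, 29.8% held a GATA word and 49.5% a CACCC-type word. The NF-E2 core (TGANTCA), held by 7.81% of windows, had no match in any window shown. A match or its lack describes these letters alone.

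Gata2, the early progenitor factor, varied 18.5-fold between its highest and lowest group means. In fetal liver it had 37.6, 39.8 and 47.4 CPM in the 3 labelled Lin28b knockout libraries, 122 CPM in the inducible let-7 library, and 208, 229 and 227 CPM in wild type. In bone marrow it had 509 and 440.4 CPM with inducible LIN28B under vavcre, 761 and 780.5 CPM with inducible LIN28B without vavcre, 314, 211 and 378 CPM in let-7b/c knockouts, and 479, 478 and 457 CPM in wild type. The LIN28B libraries without vavcre were highest, the vavcre and wild-type bone marrow libraries overlapped, as did let-7b/c knockout and wild-type fetal liver, and the labelled knockouts were lowest.

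Gata1, the factor that drives red cell and megakaryocyte maturation, ran in another order and varied 6.51-fold. In fetal liver it had 483, 499.5 and 466 CPM in the labelled Lin28b knockout libraries, 94.6 CPM in the inducible let-7 library, and 105, 104 and 111 CPM in wild type. In bone marrow it had 222 and 135 CPM with LIN28B under vavcre, 232 and 221 CPM with LIN28B without vavcre, 56.9, 82.1 and 83.4 CPM in let-7b/c knockouts, and 113, 131 and 128 CPM in wild type. The labelled knockouts stood above every other library and the let-7b/c knockouts below every other library. The 2 vavcre libraries differed more from each other than the wild-type libraries did.

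Zfpm1, the gene of the GATA1 partner FOG1, varied 17.6-fold. In fetal liver it had 523, 542 and 488 CPM in the labelled Lin28b knockout libraries, 29.4 CPM in the inducible let-7 library, and 156, 142 and 149.6 CPM in wild type. In bone marrow it had 132 and 121 CPM with LIN28B under vavcre, 257 and 258 CPM with LIN28B without vavcre, 101, 75.7 and 99.4 CPM in let-7b/c knockouts, and 166, 151 and 164 CPM in wild type. Both wild-type groups overlapped, and every other neighbouring pair of groups in the order was separate.

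Klf1, the erythroid Krüppel-like factor, varied most, 34.1-fold. In fetal liver it had 1166, 1124 and 1069.9 CPM in the labelled Lin28b knockout libraries, 32.8 CPM in the inducible let-7 library, and 82.7, 68.8 and 66.9 CPM in wild type. In bone marrow it had 179.9 and 128 CPM with LIN28B under vavcre, 152 and 157 CPM with LIN28B without vavcre, 28.7, 88.9 and 53.9 CPM in let-7b/c knockouts, and 54.0, 85.8 and 73.4 CPM in wild type. The LIN28B groups overlapped each other and lay above the wild types, while wild-type fetal liver, wild-type bone marrow and let-7b/c knockout overlapped in turn.

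Nfe2, the platelet-release factor, varied 4.28-fold, the narrowest range of the 5. In fetal liver it had 49.98, 43.5 and 55.1 CPM in the labelled Lin28b knockout libraries, 13.5 CPM in the inducible let-7 library, and 13.6, 13.0 and 13.4 CPM in wild type. In bone marrow it had 52.5 and 61.6 CPM with LIN28B under vavcre, 27.4 and 23.8 CPM with LIN28B without vavcre, 21.2, 20.3 and 29.9 CPM in let-7b/c knockouts, and 28.3, 40.1 and 25.8 CPM in wild type. The vavcre and labelled knockout libraries overlapped at the top, and the wild-type fetal liver libraries were lowest, around the inducible let-7 library. The files list 6 Nfe2 transcripts that share exons, and reads fitting several were set aside by the counting, so Nfe2 was left out of comparisons of level between genes.

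**Figure D1:**
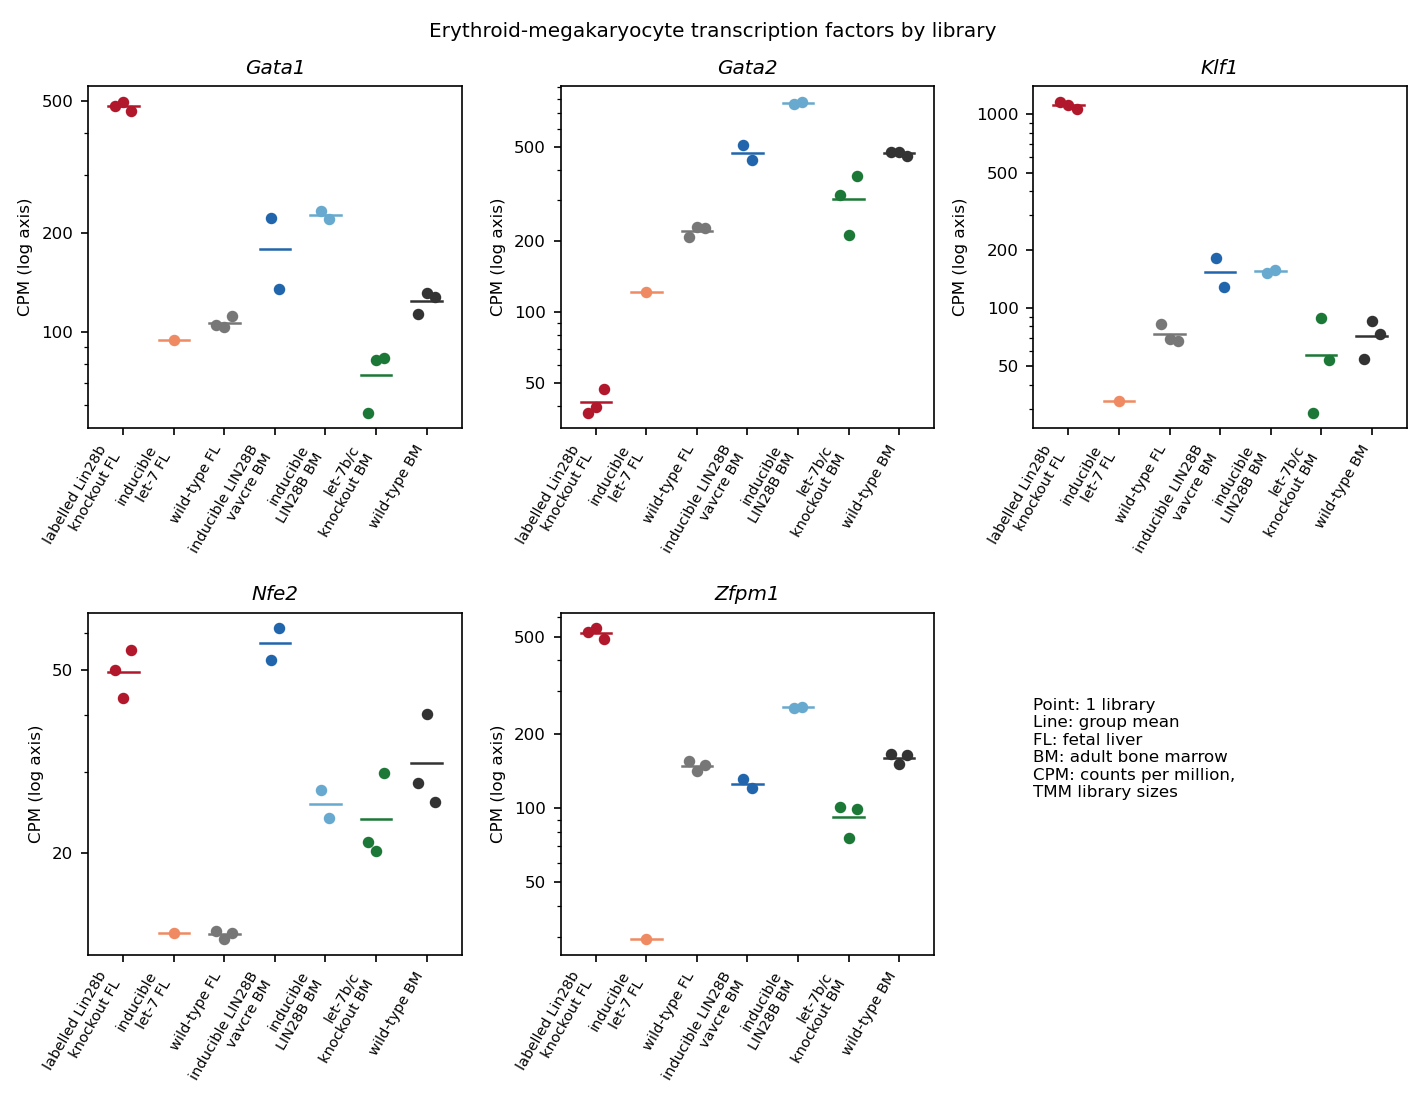
CPM (TMM library sizes, log axis) of the 5 factors, 1 point per library and a line at each group mean, in the 7 labelled groups. The labelled Lin28b knockout libraries are highest for Gata1, Klf1 and Zfpm1 and lowest for Gata2, while the LIN28B libraries without vavcre are highest for Gata2.

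Per kilobase of transcript, the order of the factors themselves differed between groups. In the labelled Lin28b knockout libraries Klf1 led at 732 CPM per kb, followed by Gata1 at 254, Zfpm1 at 153 and Gata2 at 11.6 CPM per kb. In wild-type fetal liver the same genes lay close together, with Gata2 at 61.9, Gata1 at 56.1, Klf1 at 47.6 and Zfpm1 at 44.0 CPM per kb. In wild-type bone marrow Gata2 led at 132 CPM per kb, above Gata1 at 65.3, Zfpm1 at 47.4 and Klf1 at 46.4 CPM per kb.

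The ratio of Gata2 to Gata1 counts within a library, which needs no library size, stood apart in the labelled Lin28b knockout. It was 0.0778, 0.0796 and 0.102 in the labelled knockout libraries, 1.29 in the inducible let-7 library, and 1.98, 2.21 and 2.03 in wild-type fetal livers. In bone marrow it was 2.29 and 3.26 with LIN28B under vavcre, 3.28 and 3.54 with LIN28B without vavcre, 5.52, 2.57 and 4.53 in let-7b/c knockouts, and 4.23, 3.64 and 3.57 in wild type. Gata1 counts outnumbered Gata2 counts in the labelled knockout libraries and in no other library. Per kilobase of transcript, Gata1 also stood above Gata2 in the inducible let-7 library, at 49.7 and 34.2 CPM per kb.

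Between wild types, the log2 ratio was 0.88 lower in fetal liver than in bone marrow, a 1.83-fold difference with no overlap. In the labelled Lin28b knockout it was 4.59 lower than in wild-type fetal liver, a 24.1-fold difference with no overlap. Both gave p = 0.1 in a two-sided exact permutation test, the smallest that 3 against 3 libraries allow. The 4 LIN28B libraries were 0.32 lower than wild-type bone marrow on the log2 scale, with no overlap and an exact permutation p of 0.0571, again the smallest possible, and without any single library the difference lay between -0.39 and -0.18. In let-7b/c knockouts the ratio overlapped wild-type bone marrow, with a log2 difference of 0.08 and an exact permutation p of 0.9, and with 1 library left out the difference ran from -0.15 (without knockout replicate 1) to 0.40 (without knockout replicate 2). Across 28 tests of ratios to Gata1, the smallest adjusted p of these exact tests was 0.35, so none passed.

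**Figure D2:**
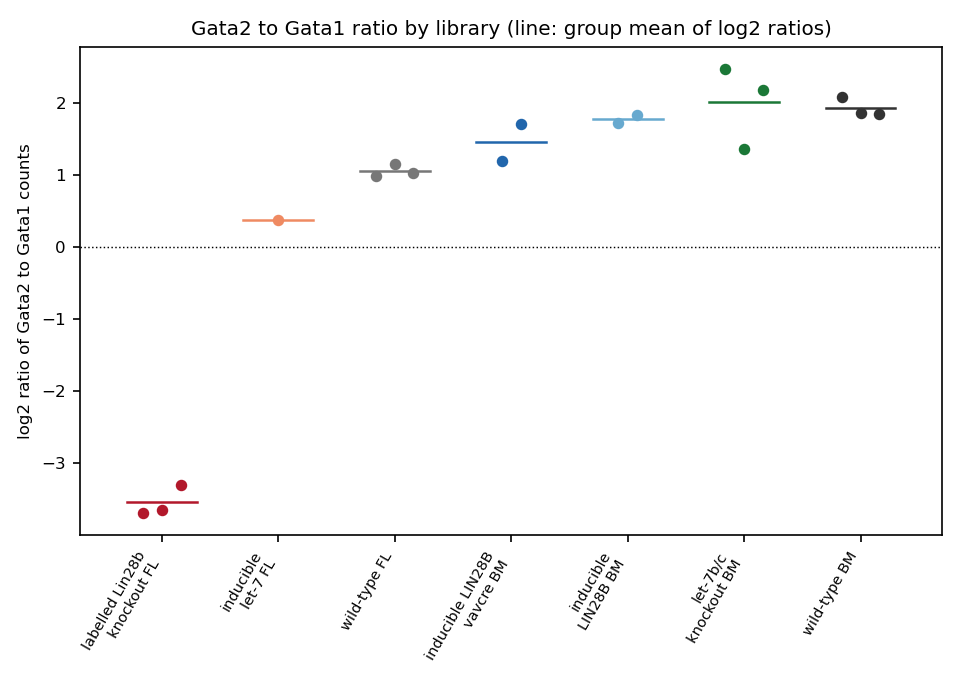
Log2 ratio of Gata2 to Gata1 counts, 1 point per library and a line at each group mean, with a dotted line at equal counts. The labelled Lin28b knockout libraries lie between -3.68 and -3.30 and all other libraries between 0.37 and 2.46.

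All 5 factors differed in the labelled Lin28b knockout libraries from wild-type fetal liver. Gata1, Klf1, Nfe2 and Zfpm1 rose and Gata2 fell, where 20.8% of all tested genes rose and 23.0% fell. Klf1 averaged 1120 ± 47.9 CPM in the labelled knockout and 72.8 ± 8.60 CPM in wild type (SD, n = 3 each), 15.4-fold higher (log2 difference 3.94, SE 0.31, adjusted p = 4.99e-08). Gata1 was 4.52-fold higher (log2 2.18, SE 0.16, adjusted p = 3.00e-08), Nfe2 3.71-fold higher (log2 1.89, SE 0.19, adjusted p = 8.71e-07) and Zfpm1 3.47-fold higher (log2 1.79, SE 0.099, adjusted p = 1.15e-09). Gata2 averaged 41.6 ± 5.18 CPM in the labelled knockout and 221 ± 11.2 CPM in wild type, 5.32-fold lower (log2 -2.41, SE 0.16, adjusted p = 9.95e-09). No library of either group overlapped the other group for any of the 5. The share of all tested genes without such overlap was not counted, here or in the other comparisons.

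The ratios among the factors lay apart as well. The Klf1 to Gata1 count ratio was 2.41, 2.25 and 2.29 in the labelled knockouts, against 0.786, 0.665 and 0.600 in wild-type fetal livers, 3.41-fold higher (exact permutation p = 0.1, the smallest possible). The Zfpm1 to Gata1 ratio was 1.30-fold lower in the labelled knockouts (log2 -0.38, exact permutation p = 0.1), with no overlap. Scaled by library totals alone, the median of all tested genes lay at -0.19 in this comparison instead of 0.00, and 35.3% of 6358 calls were higher instead of 47.5% of 5941. All 5 calls kept their direction under that scaling.

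**Figure D3:**
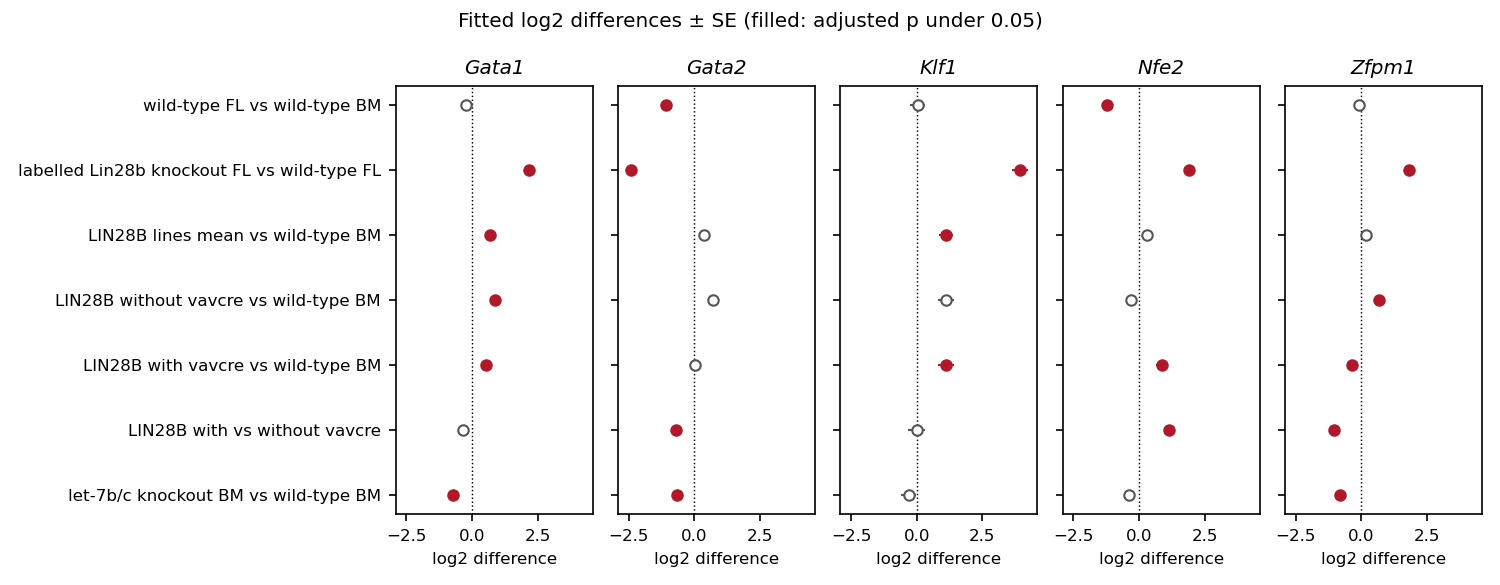
Log2 differences with standard errors for the 5 factors (1 panel each) in 7 comparisons, the first group named minus the second, from the edgeR fit of all 17 libraries. Filled points have an adjusted p under 0.05, which holds for all 5 factors in the labelled Lin28b knockout comparison only.

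Of the proteins that work with GATA1, 22 were tested besides the 5 factors, of which 5 rose and 7 fell in the labelled knockout, with a median log2 difference of -0.06 against 0.00 for all tested genes. Tal1, a helix-loop-helix factor, averaged 2.33 CPM in the labelled knockout and 0.424 CPM in wild-type fetal liver (log2 2.45, adjusted p = 0.00307). Lmo2, the bridge between TAL1 and GATA1, averaged 9.95 and 2.33 CPM in the same order (log2 2.09, adjusted p = 1.01e-05). Gfi1b, a repressor needed for red cells and platelets, was counted at 0.600 and 0.0633 CPM (log2 3.07, adjusted p = 0.0327). Its wild-type fetal liver libraries ran from 0 to 0.136 CPM, so its fold rests on very few reads. Tal1 was low there as well, at 0.272 to 0.516 CPM. Ldb1, which joins distant GATA1 complexes, did not pass (3.13 and 3.92 CPM, log2 -0.32, adjusted p = 0.384).

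Others of the 22 belong to general repressors or to another lineage. Hdac2 and Rbbp7, subunits of the NuRD repressor that FOG1 recruits, fell to 272 and 590.2 CPM in the labelled knockout, against 458 and 888 CPM in wild type. Mbd2, another NuRD component, rose to 462 CPM in the labelled knockout, against 174 CPM in wild type (log2 1.41, adjusted p = 2.04e-09). Fli1, the ETS factor of megakaryocytes and an antagonist of KLF1, fell to 76.9 CPM in the labelled knockout, against 211 CPM in wild type (log2 -1.46, adjusted p = 2.75e-09). Runx1, Tcf3, Cbfa2t2 and Erg had 0 counts in all libraries. On a separate list of 11 tested granulocyte-monocyte factors, 1 fell and 2 rose, with a median log2 difference of 0.13. The 1 that fell was Spi1, which encodes PU.1, the myeloid factor that binds and opposes GATA1, at 107 CPM in the labelled knockout, against 243 CPM in wild type (log2 -1.19, adjusted p = 7.61e-07). Cebpe, a factor of late granulocyte maturation, rose to 30.8 CPM in the labelled knockout, against 3.08 CPM in wild type, and Csf2ra, a subunit of the GM-CSF receptor, to 65.3 CPM, against 23.7 CPM.

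Among 6 tested partners and relatives of NF-E2, 4 rose, with a median log2 difference of 1.16. The small MAF genes Mafk and Mafg, whose products pair with NF-E2 p45, averaged 308 and 129 CPM in the labelled knockout, against 91.9 and 22.6 CPM in wild-type fetal liver (adjusted p = 6.06e-09 and 2.04e-10). Of 14 other Krüppel-like factor genes, 8 rose and 1 fell. Klf3, a repressor that is itself a KLF1 target, averaged 421 CPM in the labelled knockout and 47.1 CPM in wild type (log2 3.16, adjusted p = 2.26e-10).

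Of 36 tested erythroid target genes, 34 rose in the labelled knockout, and Car1 and Dmtn did not pass. Their median log2 difference was 5.66, or 4.59 with 3 genes that had 0 counts in wild type set at a floor of 3 counts over the group, against 0.00 for all tested genes. Epor, the erythropoietin receptor gene activated by GATA1, averaged 453 CPM in the labelled knockout and 29.8 CPM in wild type (log2 3.92, adjusted p = 5.05e-08). Fech, the last enzyme of heme synthesis, averaged 5428 CPM in the labelled knockout and 107 CPM in wild type. Bpgm, which sets the 2,3-bisphosphoglycerate of red cells, averaged 993 and 19.7 CPM, Urod of heme synthesis 1147 and 92.8 CPM, and the mitochondrial transporter Abcb10 1512 and 104 CPM, the labelled knockout first in each pair. Summed over the list, these genes made up 63590 to 73781 CPM in the labelled knockouts, against 1662 to 2068 CPM in wild-type fetal livers. Add2 and the globin genes Hbb-bt and Hba-a1 were at 0 in both groups. Alas2, Ank1, Hbb-bs, Hba-a2, Bcl2l1, Sox6 and Tspan33 were at 0 in wild type. Whether reads of these genes were set aside as shared was not tested, so the sums may miss part of the list.

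Megakaryocyte and platelet genes were mixed, with 13 of 20 tested higher and 4 lower, and a median log2 difference of 1.78. The platelet chemokine Pf4 averaged 270.2 CPM in the labelled knockout and 4.32 CPM in wild-type fetal liver, and the integrin Itgb3 141 and 19.4 CPM. Fli1, Nbeal2, Plek and Meis1 were the 4 that fell. Of 16 progenitor and stem factors, 11 fell and 1, Lmo2, rose, with a median log2 difference of -2.08. Among them Flt3, the receptor of multipotent progenitors, averaged 37.8 CPM in the labelled knockout and 399.8 CPM in wild type.

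**Figure D4:**
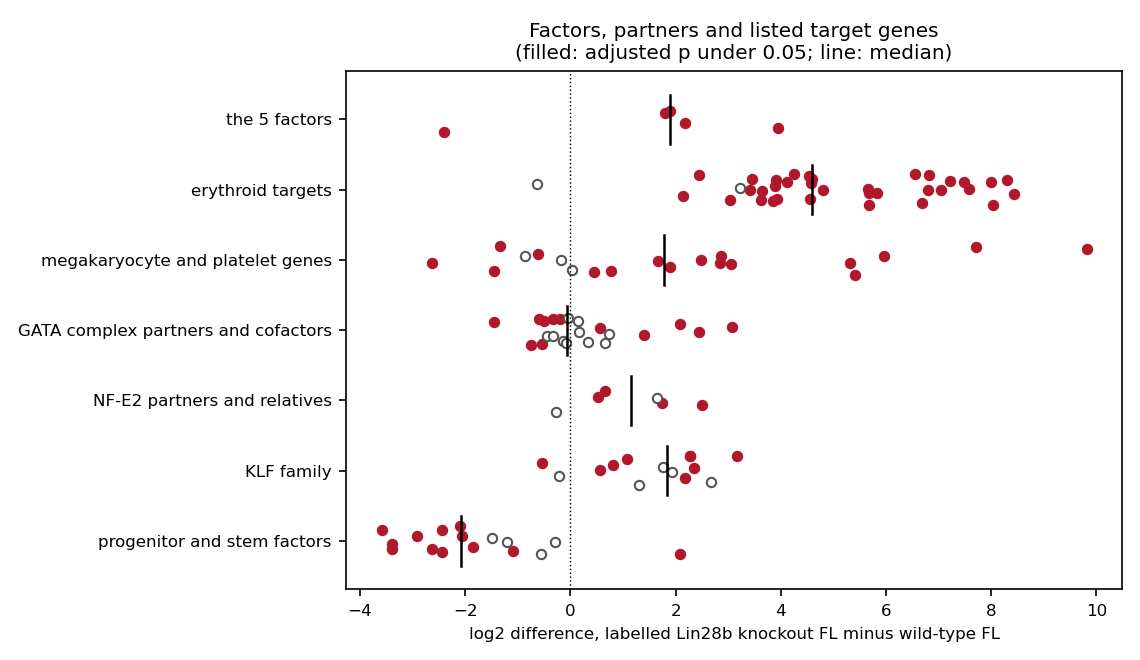
Log2 difference, labelled Lin28b knockout minus wild-type fetal liver, of the 5 factors and of each tested member of 6 gene lists (filled: adjusted p under 0.05, line: median, genes at 0 counts in a group set at a floor of 3 counts). The erythroid targets have a median of 4.59 and the progenitor and stem factors a median of -2.08.

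Genes of other cell types moved with the same libraries. Of 13 tested hepatocyte genes, 12 rose, and the list summed to 501 to 1630 CPM in the labelled knockouts, against 123 to 132 CPM in wild-type fetal livers, with Serpina1a and Ahsg at 0 in both groups. All 9 tested macrophage genes rose, with sums of 358 to 428 CPM in the labelled knockouts, against 6.94 to 10.8 CPM in wild type and Cd163 at 0 in both. Stroma and endothelium genes summed to 49.5 to 157 CPM in the labelled knockouts, against 5.39 to 7.35 CPM in wild type, with 8 of 9 tested higher and Pdgfrb, Pecam1 and Tek at 0. Mast cell genes, which matter for Gata2 because mast cells express it, summed to 414 to 538 CPM in the labelled knockouts and 545 to 690 CPM in wild type, with Kit and Tpsab1 at 0. Within that list the members were split, as 6 of 13 tested rose and 3 fell, with a median log2 difference of 2.47. CMP markers summed to 3349 to 5895 CPM in the labelled knockouts and 5362 to 6848 CPM in wild type. Of 8 tested CMP markers, 2 rose and 3 fell. The part of all these genes in the differences of the 5 factors was not tested.

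Wild-type fetal liver differed from wild-type bone marrow in 2 of the 5 factors, Gata2 and Nfe2, both lower in fetal liver, where 13.2% of all tested genes were lower and 13.9% higher. Gata2 averaged 221 ± 11.2 CPM in fetal liver and 471 ± 12.7 CPM in bone marrow (SD, n = 3 each), 2.13-fold lower (log2 -1.09, SE 0.15, adjusted p = 8.05e-05). Nfe2 averaged 13.3 ± 0.278 CPM in fetal liver and 31.4 ± 7.64 CPM in bone marrow, 2.35-fold lower (log2 -1.23, SE 0.19, adjusted p = 0.000169). Gata1 (log2 -0.22, adjusted p = 0.336), Klf1 (log2 0.04, adjusted p = 0.955) and Zfpm1 (log2 -0.11, adjusted p = 0.463) did not pass. Scaled by library totals alone, the median of all tested genes moved from -0.08 to -0.19, the Klf1 difference turned to -0.074, and 38.1% of 3694 calls were higher instead of 51.3% of 3677.

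Among megakaryocyte and platelet genes, 10 of 20 were lower in wild-type fetal liver and the other 10 did not pass, with a median log2 difference of -0.94, or -1.08 without 1 gene that had too few counts for a fold, against -0.08 for all tested genes. Pf4 averaged 4.32 CPM in fetal liver and 47.6 CPM in bone marrow, Itga2b, the platelet integrin subunit, 81.9 and 271 CPM, and Gp5 of the von Willebrand factor receptor 20.3 and 62.1 CPM. Fli1 was lower as well, at 211 CPM in fetal liver and 287 CPM in bone marrow (log2 -0.44, adjusted p = 0.00109). Of 36 erythroid targets 7 were lower, such as Icam4 (16.5 and 38.1 CPM), and 3 higher, such as Tmem14c (220.4 and 123 CPM). Among GATA partners, 6 of 22 were higher, Hdac1 and Hdac2 among them, and 3 lower, Lmo2 among them (2.33 and 5.77 CPM). Mast cell genes fell in 7 of 13, with Cpa3, a mast cell protease under GATA2, at 69.1 CPM in fetal liver and 279 CPM in bone marrow. CMP markers summed to 5362 to 6848 CPM in fetal liver and 10035 to 12046 CPM in bone marrow. Of 8 tested, 3 were lower and 0 higher, with a median log2 difference of -0.70. Among 16 progenitor and stem factors, 4 were lower and 1 higher (median log2 -0.62). Macrophage genes summed to 6.94 to 10.8 CPM in fetal liver and 25.7 to 42.9 CPM in bone marrow. The part of all these genes in the wild-type differences was not tested.

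Inducible LIN28B in adult bone marrow was compared as the mean of both lines with wild-type bone marrow, and Gata1 and Klf1 rose, where 6.59% of all tested genes rose and 7.86% fell. Gata1 was 1.62-fold higher (log2 0.70, SE 0.15, adjusted p = 0.00603) and Klf1 2.17-fold higher (log2 1.12, SE 0.26, adjusted p = 0.0115). All 4 LIN28B libraries lay above all 3 wild-type libraries for both genes, a separation not counted over all tested genes. Without wild-type replicate 2, the Klf1 difference was 0.96 with an adjusted p of 0.0656. Gata2 (log2 0.36, adjusted p = 0.103), Nfe2 (log2 0.28, adjusted p = 0.292) and Zfpm1 (log2 0.17, adjusted p = 0.237) did not pass. These comparisons and the let-7b/c knockout comparison share the 3 wild-type bone marrow libraries.

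Of 36 erythroid targets, 3 rose with the LIN28B lines, where 6.59% of all tested genes rose, and the others did not pass. These 3 were Urod, Abcb10 and Fech. They averaged 96.3, 128 and 166 CPM with LIN28B and 76.1, 99.6 and 118 CPM in wild-type bone marrow. The median log2 difference of the list was 0.17, or 0.20 without 2 genes that had too few counts for a fold, against -0.07 for all tested genes. Of 20 megakaryocyte and platelet genes, 4 fell, among them Pf4, at 13.2 CPM with LIN28B and 47.6 CPM in wild type. Klf2 and Klf6 were among 4 other Krüppel-like factors that rose, at 10.5 and 91.9 CPM with LIN28B, against 2.10 and 42.6 CPM in wild type. Macrophage genes summed to 2.28 to 18.5 CPM under vavcre, 5.96 to 6.68 CPM without vavcre and 25.7 to 42.9 CPM in wild-type bone marrow, and their part in these differences was not tested.

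The lines differed in which factors passed against wild-type bone marrow. For Klf1 this was a difference of call alone, with log2 1.12 without vavcre and 1.11 with it. Without vavcre, Gata1 was 1.82-fold higher than in wild-type bone marrow (log2 0.87, SE 0.17, adjusted p = 0.0269) and Zfpm1 1.60-fold higher (log2 0.68, SE 0.11, adjusted p = 0.00581), where 0.509% of all tested genes rose and 0.295% fell. The Gata2 (log2 0.71, adjusted p = 0.0646) and Klf1 (log2 1.12, adjusted p = 0.119) differences did not pass, although both libraries lay above all wild-type libraries. Gata2 passed with DESeq2 (adjusted p = 0.0028). With 2 libraries in the group, the Gata1 call was lost without any 1 of the 5 libraries compared (adjusted p = 0.0662 to 0.191), and without the labelled Lin28b knockout group in the fit (adjusted p = 0.0514). The Zfpm1 call was lost without LIN28B replicate 1 (adjusted p = 0.0556) or replicate 5 (adjusted p = 0.0810).

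Under vavcre, Gata1, Klf1 and Nfe2 rose and Zfpm1 fell, where 12.5% of all tested genes rose and 14.3% fell. Klf1 was 2.16-fold higher (log2 1.11, SE 0.30, adjusted p = 0.0130), Nfe2 1.82-fold higher (log2 0.86, SE 0.20, adjusted p = 0.00504) and Zfpm1 1.27-fold lower (log2 -0.35, SE 0.11, adjusted p = 0.0274). Gata1 was 1.44-fold higher (log2 0.52, SE 0.17, adjusted p = 0.0343), but without vavcre replicate 4 its difference was 0.13 (adjusted p = 0.560), and without wild-type replicate 2 or 6 its adjusted p was 0.102 or 0.0564. Gata1 also had an adjusted p of 0.0501 without the labelled Lin28b knockout group in the fit. The Klf1 call was lost without vavcre replicate 4 (log2 0.85, adjusted p = 0.0958) or wild-type replicate 2 (log2 0.96, adjusted p = 0.0571), and the Zfpm1 call without vavcre replicate 6 or wild-type replicate 2 or 6 (adjusted p = 0.0767 to 0.140). Gata2, at 475 ± 48.7 CPM under vavcre and 471 ± 12.7 CPM in wild type, did not pass (log2 0.01, adjusted p = 0.984).

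Set directly against each other, the lines differed in Gata2, Zfpm1 and Nfe2, where 9.37% of all tested genes were higher with vavcre and 11.3% lower. Nfe2 averaged 57.1 ± 6.43 CPM with vavcre and 25.6 ± 2.57 CPM without (SD, n = 2 each), 2.23-fold higher (log2 1.16, SE 0.23, adjusted p = 0.00220). Zfpm1 averaged 126 ± 8.001 CPM with vavcre and 258 ± 0.690 CPM without, 2.04-fold lower (log2 -1.03, SE 0.12, adjusted p = 6.61e-05). Gata2 was 1.62-fold lower with vavcre (log2 -0.70, SE 0.18, adjusted p = 0.0143), a call lost without vavcre replicate 6 (adjusted p = 0.0641) or LIN28B replicate 5 (adjusted p = 0.0719). Gata1 (log2 -0.34, adjusted p = 0.224) and Klf1 (log2 -0.01, adjusted p = 1) did not pass, but without vavcre replicate 4 Gata1 was lower with vavcre (log2 -0.74, adjusted p = 0.00765).

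Of 36 erythroid targets, 5 were higher and 7 lower with vavcre than without. Epor, a GATA1 target, was lower, at 18.6 CPM with vavcre and 44.6 CPM without (log2 -1.26, adjusted p = 0.0182), as was Tspo2, at 2.93 and 24.6 CPM. Epb42, a red cell membrane protein gene, was higher, at 37.7 CPM with vavcre and 6.34 CPM without. Among 22 GATA partners, 5 were higher and 6 lower, with Hdac2 at 202 CPM with vavcre and 323 CPM without, and Rbbp7 at 1034 and 687 CPM. Of 13 mast cell genes, 5 were lower with vavcre, among them Il1rl1, at 11.4 and 42.9 CPM. Of the CMP markers and granulocyte-monocyte factors, 3 genes were higher with vavcre and none lower. Mpo, the neutrophil enzyme myeloperoxidase, averaged 9698 CPM with vavcre and 5442 CPM without, Csf1r, the macrophage growth factor receptor, 85.5 and 39.6 CPM, and Csf2ra 93.8 and 49.1 CPM. The CMP markers summed to 9486 to 11347 CPM with vavcre and 5699 to 6257 CPM without, and the granulocyte-monocyte factors to 476 to 518 CPM with vavcre and 322 to 390.4 CPM without. The part of these genes in the differences of the 5 factors was not tested.

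In let-7b/c knockout bone marrow, Gata1, Gata2 and Zfpm1 fell, where 0.922% of all tested genes fell and 1.33% rose. Zfpm1 averaged 92.1 ± 14.3 CPM in the knockout and 161 ± 8.16 CPM in wild type (SD, n = 3 each), 1.74-fold lower (log2 -0.80, SE 0.097, adjusted p = 0.000672), a call that held without any 1 library. Gata1 averaged 74.1 ± 15.0 CPM in the knockout and 124 ± 9.53 CPM in wild type, 1.68-fold lower (log2 -0.74, SE 0.16, adjusted p = 0.0219). Gata2 averaged 301 ± 84.2 CPM in the knockout and 471 ± 12.7 CPM in wild type, 1.56-fold lower (log2 -0.65, SE 0.15, adjusted p = 0.0355). For all 3 genes the knockout libraries lay below the wild-type libraries, a separation not counted over all tested genes. The Gata1 call was lost without knockout replicate 1 or any 1 wild-type library (adjusted p = 0.0600 to 0.0849), and the Gata2 call without knockout replicate 1 or 2 or any 1 wild-type library (adjusted p = 0.0717 to 0.124), with the Gata2 difference at -0.43 without knockout replicate 2. Fitted on the compared groups alone, Gata2 had an adjusted p of 0.0975. Klf1 (log2 -0.31, adjusted p = 0.681) and Nfe2 (log2 -0.40, adjusted p = 0.334) did not pass, and the Klf1 difference ran from -0.76 without knockout replicate 2 to 0.034 without knockout replicate 1.

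Of 20 megakaryocyte and platelet genes, 6 fell in the let-7b/c knockout and the others did not pass, with a median log2 difference of -0.81, or -0.75 without 1 gene that had too few counts for a fold, against 0.00 for all tested genes. Gp5 averaged 25.1 CPM in the knockout and 62.1 CPM in wild type, Pf4 16.1 and 47.6 CPM, and the protease-activated receptor gene F2rl2 7.87 and 25.4 CPM. Fli1 was the only 1 of 22 GATA partners to pass, at 218 CPM in the knockout and 287 CPM in wild type (log2 -0.39, adjusted p = 0.0237). Of 36 erythroid targets, Icam4 (20.1 and 38.1 CPM) and Hemgn (31.8 and 58.2 CPM) fell, and the list median was -0.04, or -0.05 without 3 genes that had too few counts for a fold. Of 11 tested granulocyte-monocyte factors, only Csf1r passed and rose, at 260.3 CPM in the knockout and 101 CPM in wild type (log2 1.36, adjusted p = 0.00077), with a list median of 1.17 against 0.00 for all tested genes. The list summed to 603 to 760.1 CPM in the knockout and 355 to 405 CPM in wild type, and the CMP markers to 14356 to 17609 CPM in the knockout and 10035 to 12046 CPM in wild type. Of 8 tested CMP markers, only 1 passed and rose, with a median log2 difference of 0.45. Macrophage genes summed to 12.1 to 21.6 CPM in the knockout and 25.7 to 42.9 CPM in wild type. The part of these genes in the differences of the factors was not tested.

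The inducible let-7 fetal liver library has no replicate, so its values carry counting intervals alone and no test. Zfpm1 stood at 29.4 CPM (95% exact Poisson interval 27.3 to 31.6), 5.08 times lower than the wild-type fetal liver mean of 149 CPM. Klf1 stood at 32.8 CPM (30.7 to 35.1), 2.22 times lower, and Gata2 at 122 CPM (118 to 126), 1.81 times lower. Gata1, at 94.6 CPM (90.9 to 98.4), lay just below the wild-type range of 104 to 111 CPM, and Nfe2, at 13.5 CPM (12.1 to 14.9), within the range of 13.0 to 13.6 CPM. Klf1 and Zfpm1 were at least 2-fold lower on log2(CPM + 0.5), as were 23.6% of all tested genes, while 8.84% were at least 2-fold higher. These intervals cover counting error only, since reads without molecular identifiers are not independent molecules. The library's erythroid targets summed to 969 CPM, against 1662 to 2068 CPM in wild-type fetal livers. Its CMP markers summed to 17342 CPM, against 5362 to 6848 CPM in wild type, its granulocyte-monocyte factors to 791 CPM, against 439 to 471 CPM, and its mast cell genes to 1201 CPM, against 545 to 690 CPM. Its macrophage genes summed to 0.194 CPM, against 6.94 to 10.8 CPM in wild type. The part of these genes in the levels of the 5 factors was not tested.

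Within Nfe2, 3 of the 4 best counted transcripts rose in the labelled Lin28b knockout, as far as reads specific to 1 transcript show. NM_001302338 averaged 19.8 CPM in the labelled knockout and 2.13 CPM in wild-type fetal liver, 9.26-fold higher (log2 3.21, adjusted p = 3.83e-07 in an edgeR fit of 14039 transcripts), and took 40.0% of the gene's assigned counts in the labelled knockout, against 15.9% in wild type. NM_001302339 was 4.73-fold higher (adjusted p = 1.20e-05) and NM_001302343 3.87-fold higher (adjusted p = 8.86e-05). NM_008685 had 5.69, 5.87 and 7.96 CPM in labelled knockouts, against a range of 5.09 to 7.25 CPM in wild-type fetal livers, and did not pass (log2 0.08, SE 0.23, adjusted p = 0.803). Its share was 13.1% of Nfe2 counts in the labelled knockout and 46.0% in wild type. This fit per transcript was added after the data were seen, and how much of each transcript was set aside as shared is unknown.

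The same transcripts moved together between wild types. NM_001302338, NM_001302339 and NM_001302343 were lower in wild-type fetal liver than in wild-type bone marrow, with log2 differences of -1.66, -1.57 and -1.57, and NM_008685 did not pass (log2 -0.60, adjusted p = 0.0671). With vavcre against without, the same 3 were higher, with log2 differences of 1.28, 1.40 and 1.46, and NM_008685 did not pass (log2 0.77, adjusted p = 0.0594). Under vavcre against wild-type bone marrow, the same edgeR fit called NM_008685 higher (log2 1.02, adjusted p = 0.00641). NM_001302339 was higher there too (log2 0.86, adjusted p = 0.0432). NM_001302338 (log2 0.74, adjusted p = 0.0829) and NM_001302343 (log2 0.72, adjusted p = 0.106) did not pass. Differences between transcripts were not tested.

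**Figure D5:**
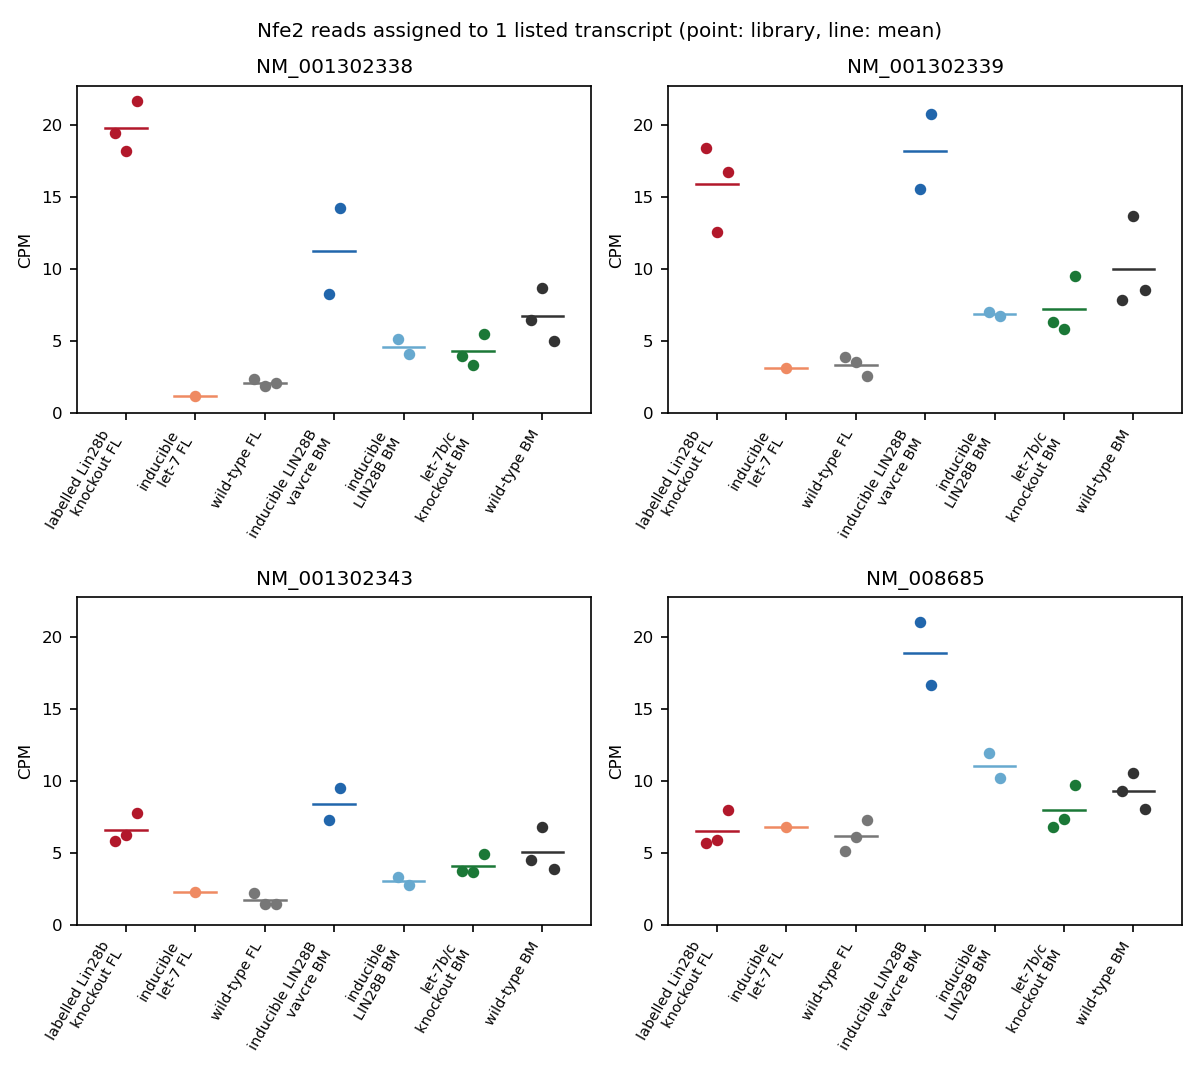
Transcript-specific CPM (linear axis) of 4 listed Nfe2 transcripts, 1 point per library, by group. NM_001302338 averages 19.8 CPM in the labelled Lin28b knockout and 2.13 CPM in wild-type fetal liver, while NM_008685 averages 6.51 and 6.15 CPM.

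Genes with the most similar profile were ranked among 7572 genes by the mean absolute difference in centred log2 CPM over the 7 group means, a description that gives the labelled knockout a large weight. Nearest to Klf1 were Slc25a38 (0.36), the mitochondrial glycine carrier of heme synthesis, Abcb10 (0.37), Epor (0.40), Marchf2 (0.42) and Ppox (0.45), a heme synthesis enzyme, with Gata1 at rank 17 and Zfpm1 at rank 110. Nearest to Gata1 were Gstm5 (0.21), Pheta2 (0.22), Bnip3l (0.25), which removes mitochondria from maturing red cells, Rbm38 (0.28) and Rmc1 (0.28). Nearest to Zfpm1 were Gp9 (0.15), a platelet receptor subunit, Bcorl1 (0.24), Fnip2 (0.29), Pfkfb2 (0.29) and Slc41a3 (0.31). Nearest to Nfe2 were Pif1 (0.21), Tprgl (0.22), Kif18b (0.26), Ldlrad4 (0.28) and Gca (0.28). Nearest to Gata2 were Slain1, Mdga1 and Slc35f2 (0.28 each), followed by Paqr8 and Fam189b (0.30 each), and the other 4 factors ranked from 2509 (Nfe2) to 6871 (Klf1).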

How the data were processed

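Messenger RNA was measured in 17 libraries of sorted CMPs, made from total RNA with the SMARTer ultra-low-input chemistry, per the labels' protocols. Per the submitters' processing notes, the tools were cutadapt, TopHat2 and HTSeq on build mm10; versions, settings and strand use were not stated in the sources used here. The authors deposited raw counts, 1 value per RefSeq transcript and library. Among uniquely placed reads, 23.8% to 29.8% fitted several transcripts and 8.87% to 19.3% none, and both kinds stayed out of all tests. The plan assumed counts per gene, and the files hold counts per transcript: 33818 transcripts were summed to 24416 genes, named from RefSeq (33435), GENCODE vM21 (191) or left unnamed (192). Each of Gata1, Gata2, Klf1 and Zfpm1 has 1 listed transcript. Gm20388 overlaps Zfpm1 on the same strand.

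All 17 libraries entered 1 edgeR 4.0.16 quasi-likelihood fit (R 4.3.3, limma 3.58.1) of 7 group means, with TMM library sizes, filterByExpr and Benjamini-Hochberg adjustment over 13558 genes, called at 0.05. Ratios used log2 of counts plus 0.5 and two-sided exact permutation tests. Intervals are at 95%. Tables and plots used Python 3.11.15, pandas 2.3.3, numpy 2.4.6, scipy 1.17.1 and matplotlib 3.10.9. The scripts were tested on simulated counts. Alternatives included DESeq2 1.42.0, other scalings and filters, fewer groups and single libraries left out. No pair of replicates agreed within sampling noise. The design had no replicate block, since no 2 groups compared share more than 1 replicate number. The LIN28B lines together share 2 with wild-type bone marrow, and a fit with the number as a block was added after the data were seen. The 5 genes and all lists were chosen with earlier results of these data known. Named genes are the 5 factors, up to 4 called members of each list by smallest adjusted p, 11 partner or target genes that the rule lists, and the 5 genes nearest each factor in profile. Car1, Dmtn, Nbeal2, Plek, Meis1 and other genes named because a count singled them out were chosen after their values were seen.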

Additional observations from a re-analysis of the deposited data

Results flagged for a closer look

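For 3 factors the effect of inducible LIN28B against wild-type bone marrow differed between the line with vavcre and the line without it, by the direct test of the difference. The LIN28B effect on Nfe2 was 1.155 higher with vavcre than without on the log2 scale (adjusted p = 0.00220), with both vavcre libraries above both others. The effect on Zfpm1 was 1.03 lower with vavcre (log2 -1.03, adjusted p = 6.61e-05), and against wild-type bone marrow Zfpm1 moved down with vavcre (log2 -0.35) and up without it (log2 0.68). The effect on Gata2 was 0.70 lower with vavcre (log2 -0.70, adjusted p = 0.0143). Each line has 2 libraries.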

How the results depend on the processing

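The 5 calls in the labelled Lin28b knockout held in every alternative that tested them; that with genes of 1 listed transcript leaves out Nfe2 and kept the other 4. There each group's value rested on 2327 counts or more, except Nfe2 in wild-type fetal liver (775 counts).

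Left-out libraries gave 1 to 2 called factors and 1095 to 2672 called genes for the LIN28B mean, 0 to 1 and 26 to 62 for LIN28B without vavcre, 1 to 4 called factors under vavcre, 1376 to 3152 called genes for vavcre against none, and 1 to 3 and 96 to 378 for the let-7b/c knockout, where the Gata2 to Gata1 log2 ratio difference ran from -0.15 to 0.40, reading -0.15 without knockout replicate 1 and -0.01 without replicate 3. Fitting only the groups compared gave 1132 genes for the LIN28B mean, 4 factors and 268 genes without vavcre, 2 factors and 2007 genes under vavcre, and 422 genes for vavcre against none. Without vavcre, no filter on low counts gave 4 factors and 191 genes, DESeq2 389 genes, and leaving out the labelled knockout group 1 factor. DESeq2 gave 782 genes for the let-7b/c knockout. With genes of 1 listed transcript, fetal liver against bone marrow kept 1 factor. For the rest, the cause was not tested.

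A replicate block, added after the data were seen, used the replicate number as a term in the fit of all libraries and left 4 residual degrees of freedom, against 10. The LIN28B lines share numbers 5 and 6 with wild-type bone marrow, and over 13558 genes the deviations from the group means correlated at -0.0415 and 0.029. With so few shared numbers, these values cannot decide whether the numbers pair the libraries. With the block, the factors called numbered 5 in the labelled knockout, 2 between wild types, 0 for the LIN28B mean, 0 without vavcre, 1 under vavcre, 2 for vavcre against none and 1 in the let-7b/c knockout, and the genes called 3073, 2185, 274, 16, 1539, 435 and 35 in that order. Gata2 under vavcre read -0.15 with the block.

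Some differences that passed no test changed sign. Klf1 between wild types was -0.074 by library totals and, with 1 library left out, ran from -0.11 to 0.20. Left-out libraries moved Gata2 under vavcre from -0.089 to 0.11, Klf1 with vavcre against without from -0.27 to 0.22, and Klf1 in the let-7b/c knockout from -0.76 to 0.034. Klf1 with vavcre against without was 0.0083 under a filter of 1 CPM in 3 libraries and 0.0088 without the inducible let-7 library (added after the data were seen). Of 195 values with 1 library left out, 160 kept direction and call, 27 lost the call, 1 gained it and 7 changed sign.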
